A study of Mus musculus with 32 samples.

Results

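NF-κB is a family of transcription factors that is held inactive in the cytoplasm by inhibitor proteins and is released within minutes of a signal such as tumour necrosis factor (TNF) or interleukin 1. Its first targets are cytokines, early transcription factors and the inhibitors that shut the response off again, and in carcinoma cells many of these genes are active without an added signal. Their mRNAs are often short-lived, so the protein made from them depends both on how much mRNA there is and on how many ribosomes it carries. The genes described here are the members of the Hallmark set for TNF signalling via NF-κB, one of the gene sets deposited with the counts. That set lists 200 genes, of which 182 were counted. Left out were 28 genes that also belong to the Hallmark hypoxia set (among them Fos, Jun, Atf3, Il6, Tnfaip3 and Zfp36) and 7 genes that the rule names (Ccnd1, Eif1, Mcl1, Myc, Plau, Sat1 and Smad3). This left 147 members among the 17757 genes counted. The rule uses no measured value beyond the presence of a gene among those counted. The members, and the roles and lists used below, were chosen with earlier results of these data known. From these the authors had already removed genes by a filter on expression. Of the 147, 122 had a mean of at least 50 counts per library, 25 had less, and each reached 3 counts in at least 1 library.

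The libraries came from spheroids of 4T1, a mouse mammary carcinoma line. They grew for 5 days with horse serum in lung-like medium, a medium made to imitate the nutrient levels that cells meet in the lung. ASP shSCR spheroids carried a scrambled short hairpin RNA and received 700 µM aspartate, NoASP shSCR spheroids carried the same hairpin and received none, and ASP shGRIN2D and ASP shDHPS spheroids received aspartate and carried a hairpin against Grin2d, an NMDA receptor subunit, or Dhps, the enzyme that starts the hypusination of the translation factor eIF5A. The hairpins were delivered by lentivirus into polyclonal, drug-selected cells, so all groups share the vector and the selection. Each condition had 4 independent pellets, and each pellet gave a polysomal library (mRNA with more than 3 ribosomes) and a sub-polysomal library, 32 libraries in all with 12870563 to 25639437 counts.

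In ASP shDHPS spheroids, Dhps was at 8.84 to 13.6 CPM (a share of the library's scaled total count) in the polysomal and 8.44 to 10.4 CPM in the sub-polysomal libraries, against 23.4 to 45.5 and 32.2 to 41.0 CPM in ASP shSCR. The 2 groups did not overlap, and the level in ASP shSCR was higher by 1.64 ± 0.23 (log2 ± SE, edgeR adjusted p = 0.0167) and 2.01 ± 0.16 (adjusted p = 1.11e-08). Grin2d was low in all libraries, with 1.11 to 2.45 CPM in the ASP shGRIN2D polysomal libraries and 2.80 to 4.26 CPM in those of ASP shSCR. Its difference of 1.14 ± 0.33 did not pass the threshold after adjustment over all genes (edgeR adjusted p = 0.263), nor did that in the sub-polysomal libraries (0.88 ± 0.29, adjusted p = 0.232). All 4 epithelial markers listed (Epcam, Krt8, Krt18, Cdh1) were counted, with a lowest value of 95.4 CPM. Of 9 leukocyte markers 3 were in the table, Ptprc at no more than 0.890 CPM, Csf1r at no more than 0.303 CPM and Cd68, the most abundant, at 4.42 to 27.8 CPM. Of 3 endothelial markers only Pecam1 was counted (up to 0.623 CPM) and of 4 fibroblast markers only Pdgfra (6.16 to 36.7 CPM).

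One library stood apart. Each library was placed on a scale from the average sub-polysomal library of NoASP shSCR, ASP shGRIN2D and ASP shDHPS, set to 0, to the average polysomal library of these conditions, set to 1 (11046 genes). Sub-polysomal libraries had positions from −0.106 to 0.122, and 15 of the 16 polysomal ones had positions from 0.777 to 1.19. For ASP shSCR replicate 1 the polysomal position was 0.3725. Counts of calls by condition and by role, and the tests named here whose call changed when its pellet was left out, are given with and without it. All conditions were fitted together, and leaving it out also changed calls in other conditions, with 16 members in ASP shSCR, 5 in NoASP shSCR, 5 in ASP shGRIN2D and 3 in ASP shDHPS.

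NF-κB binds DNA at the κB site. RefSeq promoters (250 bases before to 50 bases after the start site, build GRCm38.p6) were matched by symbol for 112 of 147 members. Letters were searched on both strands as GGG and TTCC with any 3 bases between them, a common form of the site. They were found in 22 of the 112 members and in 6.3% of all 27025 genes with a promoter in that table. Because only 76.2% of the members had a promoter, no comparison is drawn from these shares. For the motif of the AP-1 factors (TGANTCA) the counts were 15 of 112 members and 9.0% of all genes, and for the cyclic AMP response element 7 of 112 and 2.0%. Among the 11444 genes counted here that had a promoter, the shares were 7.5% for κB, 7.2% for AP-1 and 3.4% for the cyclic AMP response element. A match is a description of letters, not evidence of binding. The stretches below are shown because they belong to members described in the text and because the same 10 letters stand before members with very different ribosome loading. Capitals mark the 10 letters found, and each stretch is written 5′ to 3′ on the strand that reads them.
Nfkbia, chr12:55492657-55492686, plus strand: gtcaggcgcgGGGAATTTCCaagccagtca
Cxcl1, chr5:90891164-90891193, plus strand: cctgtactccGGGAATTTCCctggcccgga
Csf1, chr3:107760604-107760633, plus strand: ctggcccctaGGGACTTTCCctcaaggccc
Nfkb2, chr19:46305695-46305724, plus strand: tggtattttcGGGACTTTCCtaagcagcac
Ifngr2, chr16:91546974-91547003, minus strand: ccggcccgtgGGGACTTTCCccggtgttcc
Tnfrsf9, chr4:150927946-150927975, plus strand: cagagcagctGGGGATTTCCcaggaggccc
Nfkbia and Cxcl1 had the same 10 letters, which began 29 and 71 bases before the start site of each. In Cxcl1 the opposite strand, shifted by 1 base, matched too, so these overlapping matches are 1 place, and a separate match began 89 bases before the start. Nfkb2 had 3 more matches before its several start sites. Csf1, Nfkb2 and Ifngr2 also shared 10 letters, beginning 154, 225 and 75 bases before a start site. Csf1 and Nfkb2 had mean log2 ratios of polysomal to sub-polysomal mRNA of 0.70 and 0.55 over the 16 pellets, and Ifngr2 had −1.82.

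The first question was how the members distribute between the fractions. Together they took 1.01% ± 0.07 of all counts in the polysomal and 0.735% ± 0.030 in the sub-polysomal libraries of ASP shSCR (mean ± SD, n = 4). The corresponding shares were 1.03% ± 0.10 and 0.734% ± 0.055 in NoASP shSCR, 1.06% ± 0.19 and 0.741% ± 0.089 in ASP shGRIN2D, and 1.09% ± 0.07 and 0.782% ± 0.052 in ASP shDHPS. Within each condition every polysomal library had a higher share than every sub-polysomal one. The 5 most abundant members (Sqstm1, Cd44, Tsc22d1, Ehd1 and Map2k3) held 27.8% of the members' counts. Without these 5, the shares in ASP shSCR were 0.701% ± 0.029 and 0.573% ± 0.025, again without overlap. In NoASP shSCR and ASP shGRIN2D the 2 fractions then overlapped.

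Per gene, the polysomal to sub-polysomal ratio was tested with edgeR within each condition, with a term for each pellet and an adjusted p under 0.05 over all 17757 genes as the threshold. In ASP shSCR 50 of 147 members were higher in polysomes (all genes: 20.8%) and 28 were lower (all genes: 18.9%). In NoASP shSCR 60 were higher (23.7%) and 29 lower (20.6%), in ASP shGRIN2D 59 (23.0%) and 29 (20.4%), and in ASP shDHPS 59 (21.8%) and 33 (21.3%), with the shares of all genes in brackets. Without the pellet of ASP shSCR replicate 1, 44 members were higher and 32 lower in that condition, and 69 of the 78 members called with it were called again in the same direction. The counts in the other conditions were then 60 and 32 in NoASP shSCR, 60 and 33 in ASP shGRIN2D, and 60 and 35 in ASP shDHPS. The median log2 ratio of the members was 0.23, 0.40, 0.36 and 0.29 in the 4 conditions, and that of all genes −0.04, 0.00, 0.00 and −0.09. When the scaling was set within each fraction, the median of all genes rose by 0.10 to 0.17 and the members' median stood 0.30 to 0.42 above it, where it had stood 0.28 to 0.40 above.

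The members were more often abundant, with 122 of 147 at a mean of at least 50 counts, beside 10909 of 17757 genes, so the shares are also given among these. In ASP shSCR 37.7% of these members were higher in polysomes (all such genes: 32.3%) and 21.3% were lower (27.1%). In NoASP shSCR 47.5% were higher (36.6%), and in both ASP shGRIN2D and ASP shDHPS 45.9% were (35.6% and 33.6%). For the higher calls the distance to the other genes was smaller than over the whole table. For the lower calls it was larger, with 22.1%, 22.1% and 25.4% of these members in NoASP shSCR, ASP shGRIN2D and ASP shDHPS beside 28.3%, 28.2% and 29.8%. Without the pellet of ASP shSCR replicate 1 the shares in ASP shSCR came close to those of all such genes, with 34.4% higher (32.1%) and 25.4% lower (27.6%).

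**Figure D1:**
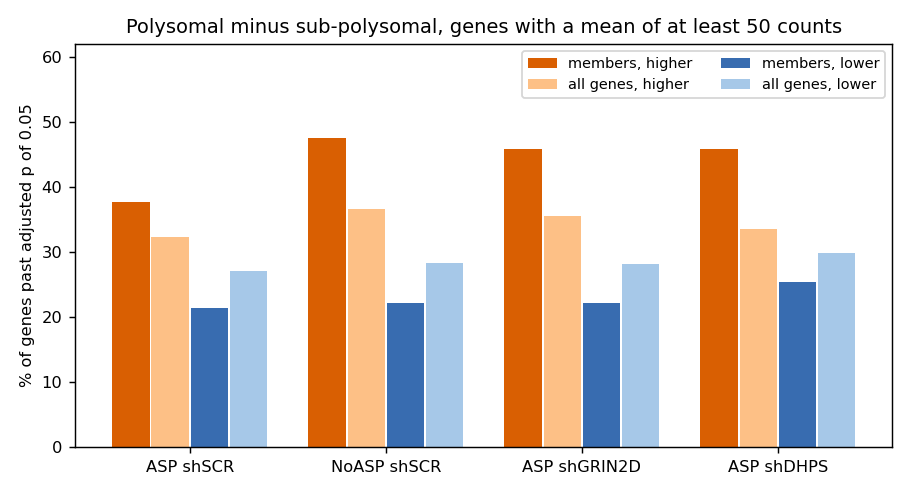
Percentage of genes called higher or lower in polysomal than in sub-polysomal libraries (edgeR adjusted p under 0.05; y axis, percent) in each condition (x axis), among the 122 members (dark bars) and the 10909 genes (light bars) with a mean of at least 50 counts. The dark orange bar exceeds the light one in each condition, from 37.7% beside 32.3% in ASP shSCR (34.4% beside 32.1% without replicate 1) to 47.5% beside 36.6% in NoASP shSCR, and the dark blue bar lies under the light one.

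Across the 4 conditions the calls mostly fell on one side for a gene. There were 39 members (26.5%) that were higher in polysomes in all 4 conditions, beside 15% of all genes, and 20 (13.6%) that were lower in all 4, beside 14.2%. A further 34 members (23.1%) were called in no condition, beside 42.7% of all genes. These shares of all genes over 4 conditions, here and by role below, are over all 17757 genes. They were not computed among genes with at least 50 counts, so they are not matched for abundance. Only Ifit2 was called in both directions. Without the pellet of ASP shSCR replicate 1 the counts were 34 higher, 23 lower and 33 in no condition. Csf1, Fosl1, Ier5, Gadd45b, Rhob and Tnc were then no longer higher in all 4, Areg was, and Rela, Egr3 and Ccnl1 became lower in all 4.

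**Figure D2:**
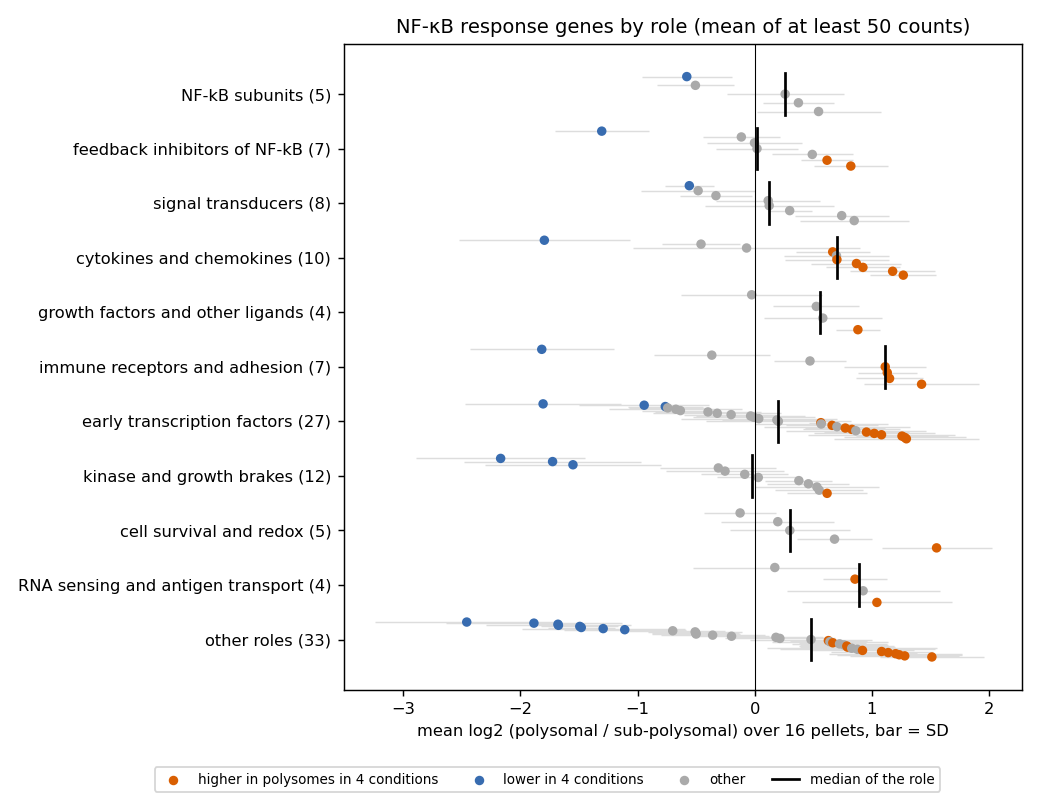
Mean log2 ratio of polysomal to sub-polysomal counts over 16 pellets (x axis) for each of the 122 members with a mean of at least 50 counts, by role (y axis, number of members in brackets). Points are genes, grey bars the SD over pellets and black lines the median of a role. Orange and blue points are called in the same direction in 4 conditions, and the roles reach from members under −2 to members over 1.5.

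The transcription factor subunits themselves fell on both sides. Rela, the main activating subunit, had ratios of −0.07, −0.86, −0.53 and −1.05 in ASP shSCR, −0.54, −0.35, −0.40 and −0.80 in NoASP shSCR, −0.05, −0.86, −0.68 and −0.31 in ASP shGRIN2D, and 0.17, −0.49, −0.49 and −0.77 in ASP shDHPS (log2, replicates 1 to 4). Thus 15 of 16 pellets were below 0, and the gene was lower in polysomes in 3 conditions (edgeR log2 −0.63 ± 0.19, adjusted p = 0.0100 in ASP shSCR, and −0.88 ± 0.20 without replicate 1), and without that pellet also in ASP shDHPS (−0.42 ± 0.17, adjusted p = 0.0458). Relb, the subunit of the alternative pathway, was lower in all 4 conditions, by −0.63 ± 0.21 in ASP shSCR (adjusted p = 0.015), with only ASP shSCR replicate 1 above 0 at 0.36, and by −1.03 ± 0.19 without that pellet. Nfkb2, the precursor that pairs with RelB, had a mean ratio of 0.55 ± 0.53 (SD over 16 pellets), was above 0 in 14 of 16 pellets and was called higher in 3 conditions. Nfkb1, the precursor of p50, averaged 0.37 ± 0.30 and was called higher in NoASP shSCR (0.49 ± 0.18, adjusted p = 0.029). Without ASP shSCR replicate 1 Nfkb1 was also called higher in ASP shSCR (0.53 ± 0.18, adjusted p = 0.0189) and ASP shDHPS (0.39 ± 0.16, adjusted p = 0.043). Rel, the c-Rel gene, averaged 0.26 ± 0.50 and was called higher only in ASP shGRIN2D.

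The inhibitors that NF-κB induces against itself also divided. Nfkbia encodes IκBα, which binds NF-κB dimers and carries them back to the cytoplasm. Its ratio was 0.82, 0.28, 0.71 and 0.59 in ASP shSCR, 0.84, 0.53, 0.55 and 0.28 in NoASP shSCR, 0.65, 0.64, 0.51 and 0.60 in ASP shGRIN2D, and 1.18, 0.81, 0.54 and 0.38 in ASP shDHPS. All 16 pellets lay above 0 and the 4 conditions overlapped widely. It was called higher in each, with 0.60 ± 0.16 (adjusted p = 0.0041) in ASP shSCR. Tnip2, which binds the ubiquitin-binding inhibitor network of the pathway, was also higher in all 4, and Tnip1, of the same network, in 3. Bcl3, an IκB family protein of the nucleus, was lower in all 4, with a mean of −1.31 ± 0.40 (SD, 16 pellets) and no pellet above 0. Nfkbie, Socs3 and Zc3h12a, the last an RNase that degrades inflammatory mRNAs, were called in no condition, but without ASP shSCR replicate 1 Socs3, an inhibitor of cytokine receptor signalling, was lower in ASP shSCR (−0.57 ± 0.19, adjusted p = 0.0199).

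Among the 8 signal transducers none was higher in all 4 conditions (all genes: 15%), with or without ASP shSCR replicate 1. Only Map2k3, a kinase that activates p38, was lower in all 4 (all genes: 14.2%), with a mean ratio of −0.56 ± 0.21. Birc3, the ubiquitin ligase cIAP2, averaged 0.74 ± 0.40 and Birc2, its close relative, 0.85 ± 0.47, and both were higher in 3 conditions.

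Of 20 cytokines and chemokines, 6 were higher in all 4 conditions (all genes: 15%), 2 were lower in all 4 (14.2%) and 7 were called in none (42.7%). Without ASP shSCR replicate 1 the counts were 5, 2 and 8. Il1a, an interleukin that is itself an activator of NF-κB, had ratios of 1.96, 1.36, 1.19 and 1.23 in ASP shSCR, 1.18, 1.21, 1.25 and 1.48 in NoASP shSCR, 1.32, 1.20, 1.51 and 1.15 in ASP shGRIN2D, and 1.00, 1.31, 0.58 and 1.39 in ASP shDHPS. Every pellet was above 0.5, and the test gave 1.43 ± 0.18 in ASP shSCR (edgeR adjusted p = 7.3e-07). Cxcl1, a neutrophil attractant, was above 0 in 16 of 16 pellets with a mean of 0.67 ± 0.31, and Cxcl5 with 0.87 ± 0.38. Cxcl1, Cxcl2 and Cxcl3 are close paralogs, so reads they share make their single values uncertain. Il23a (1.18 ± 0.36), Tnfsf9 (0.93 ± 0.31) and Csf1, the macrophage growth factor (0.70 ± 0.44), completed the 6. Without replicate 1 Csf1 did not pass in ASP shSCR (0.44 ± 0.24, adjusted p = 0.154).

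On the other side stood Clcf1, a cytokine of the interleukin 6 family. Its ratio was 0.73, −2.24, −2.17 and −1.83 in ASP shSCR, −1.86, −1.77, −2.15 and −2.32 in NoASP shSCR, −2.13, −2.46, −2.12 and −1.92 in ASP shGRIN2D, and −1.72, −1.71, −1.497 and −1.56 in ASP shDHPS. Only the pellet of the library that stood apart was above −1. Lif, another cytokine of that family, was lower in ASP shSCR (−0.75 ± 0.17, adjusted p = 0.00075) and ASP shGRIN2D (−0.54 ± 0.17, adjusted p = 0.011), with −0.40 and −0.14 in the others, of which NoASP shSCR passed without ASP shSCR replicate 1 (−0.45 ± 0.16, adjusted p = 0.0239). Ccl5, a T cell attractant with a mean of 40.8 counts per library, was the other gene of this group that was lower in all 4 (mean −1.79 ± 0.98). Several well-known cytokine genes were hardly present. Il1b had a mean of 32.7 counts and was lower in ASP shGRIN2D and ASP shDHPS (and in NoASP shSCR without ASP shSCR replicate 1, adjusted p = 0.0382), and Cxcl10, with 25.3 counts, was lower in NoASP shSCR. Tnf, Cxcl2 and Csf2, with 14.97 to 27.3 counts, were called in no condition. Ccl2, with 38.8 counts, was higher only in ASP shSCR (1.17 ± 0.43, adjusted p = 0.033), and not without replicate 1 (adjusted p = 0.105).

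**Figure D3:**
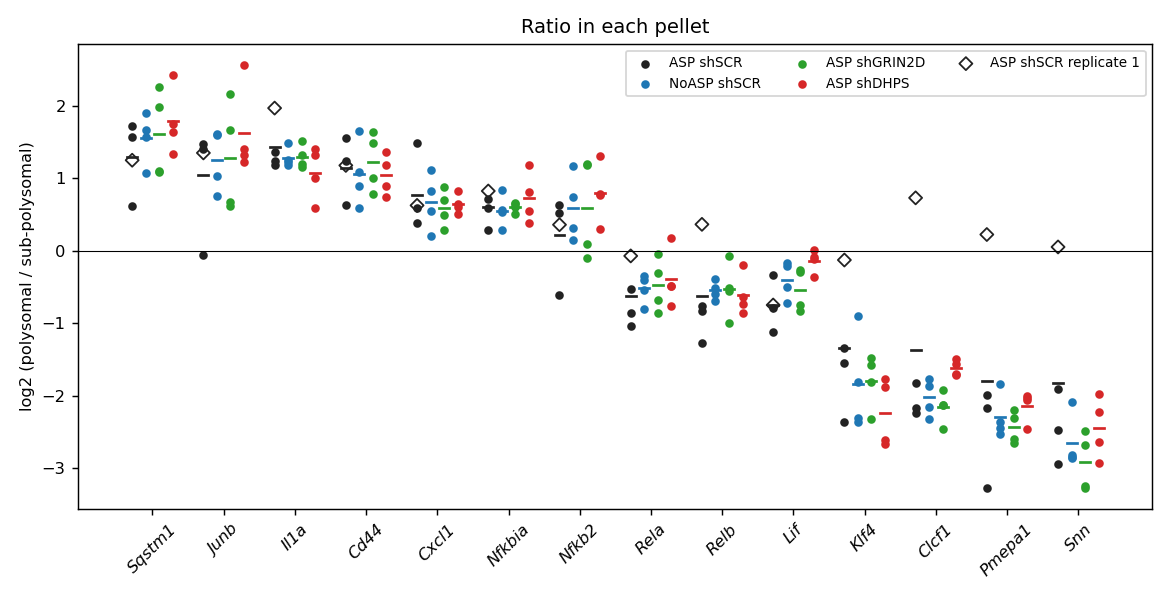
Log2 ratio of polysomal to sub-polysomal counts (y axis) in each of 16 pellets for 14 members (x axis), by condition (colour). Short lines are means of 4 pellets and open diamonds the pellet of ASP shSCR replicate 1. Sqstm1, Il1a, Cd44, Cxcl1 and Nfkbia lie above 0 in each pellet, and Klf4, Clcf1, Pmepa1 and Snn lie at −0.90 or lower in each pellet but that diamond, which stands at 0.73 for Clcf1 and 0.05 for Snn.

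Among the ligands of growth factor receptors, Hbegf, an EGF receptor ligand, was higher in all 4 conditions (mean 0.88 ± 0.19) and Areg, another, in 3 (0.53 ± 0.37), or in all 4 without ASP shSCR replicate 1. Of 11 immune receptors and adhesion genes 4 were higher in all 4 conditions (all genes: 15%), with or without ASP shSCR replicate 1. Cd44, the hyaluronan receptor and an abundant mRNA with a mean of 10115 counts, averaged 1.12 ± 0.35 with all pellets between 0.59 and 1.65. Tlr2, a receptor for bacterial lipopeptides (1.13 ± 0.25), F2rl1, a protease-activated receptor (1.15 ± 0.29), and Tnfrsf9, the costimulatory receptor 4-1BB (1.43 ± 0.49), were the others. Ifngr2, a chain of the interferon gamma receptor, was lower in all 4. Its ratios were 0.23 in ASP shSCR replicate 1 and between −1.26 and −2.36 in the other 15 pellets. Icam1 had a mean of 36.1 counts and was called in no condition.

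The early transcription factors, 28 genes, held 10 that were higher in all 4 conditions (all genes: 15%) and 3 that were lower in all 4 (14.2%). Without ASP shSCR replicate 1 the counts were 8 and 4, with Fosl1 and Ier5 no longer higher in all 4 and Egr3 lower in all 4. Junb, an AP-1 subunit, had 1.35, −0.06, 1.47 and 1.402 in ASP shSCR, 1.61, 0.75, 1.02 and 1.59 in NoASP shSCR, 2.16, 0.62, 0.68 and 1.66 in ASP shGRIN2D, and 2.56, 1.22, 1.41 and 1.32 in ASP shDHPS. Its pellets varied more than those of Nfkbia (SD 0.62 against 0.23 over 16 pellets), and 15 of 16 were above 0. Ets2 (1.28 ± 0.52), Nfe2l2, the activator of antioxidant genes (1.26 ± 0.39), Tgif1, a repressor of TGF-β responses (0.57 ± 0.10), and, with all pellets, Fosl1, an AP-1 subunit (0.78 ± 0.34), were in the same group. Without replicate 1 the test of Fosl1 in ASP shSCR gave 0.46 ± 0.20 (adjusted p = 0.0729). Klf4 was the lowest of the 27 with at least 50 counts. Its ratios were −0.13, −2.36, −1.55 and −1.34 in ASP shSCR and between −0.90 and −2.67 in the other 12 pellets, and the test gave −1.35 ± 0.28 in ASP shSCR (adjusted p = 0.0003), −1.83 ± 0.26 there without replicate 1, and −2.24 ± 0.28 in ASP shDHPS (adjusted p = 4.2e-07). Mxd1, an antagonist of Myc, and Nr4a1, an orphan nuclear receptor, were lower in all 4 too. Egr1 was lower only in ASP shSCR (−0.69 ± 0.21, adjusted p = 0.011, and −0.89 ± 0.23 without replicate 1), and Ier2 was higher in ASP shDHPS (1.06 ± 0.27, adjusted p = 0.0018). Without ASP shSCR replicate 1 Ier2 was also called higher in NoASP shSCR (0.58 ± 0.23, adjusted p = 0.0455) and ASP shGRIN2D (0.62 ± 0.24, adjusted p = 0.0349). Whether these conditions differ for Egr1 and Ier2 is a separate test, in which neither passed the threshold.

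Of 13 kinase and growth brakes 3 were lower in all 4 conditions (all genes: 14.2%), with or without ASP shSCR replicate 1. These were Pmepa1, which dampens TGF-β signalling (−2.17 ± 0.72), Dusp5, a phosphatase of ERK (−1.73 ± 0.75), and Btg3, an antiproliferative protein (−1.55 ± 0.75). In each the only pellet above 0 was that of ASP shSCR replicate 1, with 0.22, 0.91 and 0.91. Gadd45b (0.62 ± 0.34) was the only brake that was higher in all 4 (all genes: 15%), though not without replicate 1 (edgeR adjusted p = 0.0797 in ASP shSCR). Sqstm1, the autophagy receptor p62, had the highest mean ratio among members with at least 50 counts. It stood at 1.25, 0.61, 1.72 and 1.57 in ASP shSCR, 1.67, 1.06, 1.57 and 1.90 in NoASP shSCR, 2.25, 1.08, 1.10 and 1.98 in ASP shGRIN2D, and 2.42, 1.33, 1.64 and 1.74 in ASP shDHPS. This is a mean of 1.55 ± 0.47, or 2.94-fold more in polysomes, and Sqstm1 was also the most abundant member per kilobase of transcript in the polysomal libraries (643 CPM per kb, against a median of 10.2 over the members). Sod2, the mitochondrial superoxide dismutase and a classical NF-κB target, was called in no condition (−0.12 ± 0.31). The RNA sensors Ddx58 (RIG-I) and Ifih1 (MDA5) were higher in all 4, with means of 0.86 ± 0.27 and 1.05 ± 0.64.

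Snn, which encodes the small membrane protein stannin, had the lowest ratio of the members with at least 50 counts. Its values were 0.05, −2.95, −2.47 and −1.91 in ASP shSCR, −2.84, −2.81, −2.08 and −2.87 in NoASP shSCR, −3.24, −2.48, −3.27 and −2.68 in ASP shGRIN2D, and −2.93, −2.64, −1.98 and −2.23 in ASP shDHPS. The mean of −2.46 ± 0.79 corresponds to 5.50-fold more in the sub-polysomal libraries. B4galt5, a galactosyltransferase, was low in every pellet, from −1.19 to −2.10, the pellet of ASP shSCR replicate 1 included (−1.36). Of the 20 members that were lower in all 4 conditions, 11 were above 0 in ASP shSCR replicate 1, and 17 were higher there than in the other 3 pellets of the condition. Of the 39 that were higher in all 4, 8 were lower there than in the other 3 pellets and 6 were higher.

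The genes upstream of NF-κB were taken from a separate list of 29 receptors, adaptors, ubiquitin ligases, kinases and others, none of them a member. Some on the list restrain the signal, among them the inhibitor Nfkbib and the deubiquitinases Cyld and Otulin. In all 4 conditions 11 of the 29 were lower in polysomes (37.9%, all genes: 14.2%), 3 were higher (10.3%, all genes: 15%) and 7 were called in none. The list was chosen with earlier results of these data known, and whether it differs from other genes was not tested. The 11 included Irak1 (log2 −2.45 to −3.61 over the conditions), Traf6 (−1.57 to −2.70), Map3k7, the kinase TAK1 (−1.30 to −2.01), and its partners Tab2 (−0.91 to −1.70) and Tab3 (−0.88 to −1.73), which carry signals from interleukin 1 and Toll-like receptors, and Chuk, the kinase IKKα (−0.56 to −1.43). Traf3 (−2.005 to −2.71) and Ltbr, the lymphotoxin β receptor (−1.78 to −2.60), belong to the alternative pathway. Otulin (−1.24 to −1.60) was among the 11 too, while Cyld was higher in 3 conditions and Nfkbib was called in none. The 3 on the other side were Cd40 (1.05 to 1.39), Tradd (0.80 to 1.39) and Traf2 (0.56 to 1.17), the last 2 being adaptors of the TNF receptor. In ASP shSCR 6 were higher (20.7%, all genes: 20.8%) and 13 lower (44.8%, all genes: 18.9%). In NoASP shSCR 4 were higher (13.8%, all genes: 23.7%) and 11 lower (37.9%, 20.6%). In ASP shGRIN2D 8 were higher (27.6%, 23.0%) and 12 lower (41.4%, 20.4%). In ASP shDHPS 5 were higher (17.2%, 21.8%) and 11 lower (37.9%, 21.3%). Among all genes with at least 50 counts, 27.1% to 29.8% were lower and 32.3% to 36.6% higher by condition. Without ASP shSCR replicate 1 the counts of the list were the same in number. In all 4 conditions 3 were then higher and 11 lower, and 6 were called in none. Under the alternatives tried there were 4 to 6, 3 to 7, 4 to 9 and 3 to 5 higher in the 4 conditions and 9 to 14, 11 to 13, 11 to 13 and 11 lower. Scaling within each fraction gave the 7 in NoASP shSCR. The 4 in ASP shGRIN2D came without its replicate 2 (5 without its replicate 1), and the 3 in ASP shDHPS without its replicate 1. The median log2 ratio of the list was −0.32 in ASP shSCR (all genes: −0.04), −0.24 in NoASP shSCR (0.00), −0.13 in ASP shGRIN2D (0.00) and −0.14 in ASP shDHPS (−0.09), so that in ASP shDHPS it lay close to them.

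Many NF-κB targets carry AU-rich elements in the 3′ untranslated region (UTR), at which RNA-binding proteins mark an mRNA for decay or hold back its translation. In 1 protein-coding transcript per gene (GENCODE M21, GRCm38, another build than the GRCm39 of the counts), the 122 members with at least 50 counts had a median of 3 copies of ATTTA in the 3′ UTR, and all genes with at least 50 counts had a median of 1 (10375 of 10909 matched). A stretch of 30 bases with at least 3 overlapping or separate copies was found in 15 of 147 members (10.2%), beside 2.13% of 13376 genes with a coding transcript. Of the 15, 7 were cytokines or chemokines. Such a stretch was found in 1 of the 39 members that were higher in all 4 conditions and in 2 of the 20 that were lower in all 4. Without ASP shSCR replicate 1, Areg, which also holds such a stretch, joined those that were higher. The stretches of 3 cytokines are shown because they hold similar elements and differ in ratio. Capitals mark each ATTTA.
Cxcl1, chr5:90892602-90892631, plus strand: gagggtcctATTTATTTAtgtATTTATTTA
Clcf1, chr19:4223402-4223431, plus strand: taatATTTATTTAtttggagatgttATTTA
Lif, chr11:4272414-4272443, plus strand: ATTTAttcaatgtcatATTTAaaatATTTA
The stretch of Cxcl1 holds 4 of the 7 copies in its 3′ UTR, and the gene had a mean ratio of 0.67. Those of Clcf1 and Lif hold 3 each, of 4 and 7 copies, and the genes had −1.80 and −0.46. Across the 122 members with at least 50 counts the Spearman correlation of the mean ratio with the number of ATTTA copies was −0.08, a description over genes, which are not replicates. Among 8 proteins that bind AU-rich elements, Elavl1 (HuR, 1.03 to 1.25) and Hnrnpd (AUF1, 0.79 to 1.22) were higher in polysomes in all 4 conditions, and Zfp36l2 (−1.32 to −1.55), of the family that triggers decay, was lower in all 4.

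Among the features computed from these transcripts, the base composition of the 5′ UTR went furthest with the ratio. The Spearman correlation of the mean log2 ratio with the G + C content of the 5′ UTR was −0.43 over 121 of the 122 members, beside −0.31 over 10035 of the 10909 genes with at least 50 counts. Without ASP shSCR replicate 1 both values were the same to 2 decimals. Those with G + C of 60.0% or less (41 members) had a median ratio of 0.67, with 16 higher and 1 lower in all 4 conditions. Those between 60.3% and 69.2% (41 members) had a median of 0.55, with 17 higher and 4 lower, and those from 70.2% to 85.7% (39 members) had −0.48, with 5 higher and 13 lower. Without ASP shSCR replicate 1 these counts were 14 and 1, 15 and 4, and 5 and 16. Of all genes, at any G + C content, 15% were higher and 14.2% lower in all 4 conditions. Shares of all genes within the same ranges are not given, so these counts describe the members only. The 20 members that were lower in all 4 had a median of 76.1% (19 matched) and the 39 that were higher had 63.1%. Snn (68.8%) and Klf4 (62.4%) were low in ratio without a high value. For the length of the coding sequence, which limits how many ribosomes an mRNA can hold, the correlation was 0.08 over the 122 members and 0.20 over all such genes. These points share libraries, and composition also goes with length, abundance and library preparation, whose part was not tested.

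**Figure D4:**
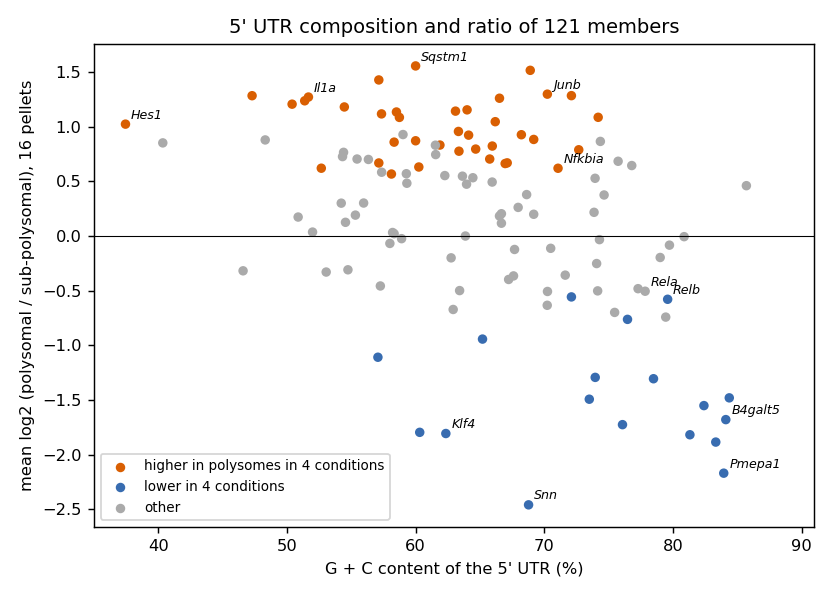
Mean log2 ratio of polysomal to sub-polysomal counts over 16 pellets (y axis) against the G + C content of the 5′ UTR in percent (x axis) for 121 members with a mean of at least 50 counts. Orange and blue points are called in the same direction in 4 conditions. To the right of 70% stand 13 blue and 5 orange points, and 1 blue and 16 orange points stand at 60.0% or less.

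The second question was whether aspartate or either knockdown changed these genes. All 9 comparisons use the same ASP shSCR pellets and are given as ASP shSCR minus the other condition. For the ratio, no member and no other gene passed the threshold against NoASP shSCR (all genes: 0%) or ASP shGRIN2D (0%) with edgeR, and DESeq2 called no member in either. At an unadjusted p under 0.05 there were 1 and 2 members (0.68% and 1.36%), beside 1.93% and 3.22% of all genes. The median difference over members was −0.05 and 0.02. The values of members with at least 50 counts lay between −0.65 and 0.81 against NoASP shSCR and between −0.66 and 1.07 against ASP shGRIN2D.

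Against ASP shDHPS 1 of 147 members, Ifit2, had a higher ratio in ASP shSCR (all genes: 0.208%), and no gene had a lower one (0%). These were 37 genes by edgeR, where DESeq2 called 626 genes and 8 members, 6 higher and 2 lower. Ifit2 is an interferon-induced protein that binds RNA and hinders its translation. Its log2 ratio was 0.56, 1.06, 0.53 and 0.65 in ASP shSCR, 0.26, 0.56, 0.15 and 0.65 in NoASP shSCR, −0.04, 0.74, 0.51 and 0.33 in ASP shGRIN2D, and −1.65, −0.18, −1.06 and −0.28 in ASP shDHPS. The 4 pellets of ASP shDHPS were below all pellets of ASP shSCR. The difference was 1.49 ± 0.32 (edgeR adjusted p = 0.0443), and without ASP shSCR replicate 1 it was 1.496 with an adjusted p of 0.0505. Over the alternatives tried, the adjusted p ran from 0.0028 to 0.214, and 7 of 22 passed. At an unadjusted p under 0.05, 12.9% of the members and 13.6% of all genes differed.

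For the level within a fraction, no member differed between ASP shSCR and NoASP shSCR in polysomal (all genes: 0%) or sub-polysomal libraries (0%), with 14 and 9 members at an unadjusted p under 0.05 (9.52% and 6.12%, beside 7.75% and 4.91% of all genes) and none by DESeq2. No member differed from ASP shGRIN2D in polysomal (all genes: 0.0169%) or sub-polysomal libraries (0.315%) with edgeR. There were 19 and 33 members at an unadjusted p under 0.05 (12.9% and 22.4%, beside 9.06% and 11% of all genes), and DESeq2 called 0 and 2. Sums of marker genes of cell types also differed in these libraries, though no single marker passed the threshold. Single epithelial markers lay between log2 −0.13 and 1.01 in the sub-polysomal level, so not all went the same way. The summed epithelial markers were at 2254 to 4166 CPM in the sub-polysomal libraries of ASP shSCR and 1531 to 1939 CPM in those of ASP shGRIN2D, without overlap, and overlapped in the polysomal ones (3089 to 6340 against 2392 to 4889 CPM). The summed leukocyte markers were at 11.2 to 13.9 CPM in the polysomal libraries of ASP shSCR and 14.6 to 21.45 CPM in those of ASP shGRIN2D, without overlap, and overlapped in the sub-polysomal ones (5.96 to 11.5 against 6.06 to 10.98 CPM). This sum stands mostly for 1 gene, Cd68, as Ptprc reached no more than 0.890 CPM and Csf1r no more than 0.303 CPM in any library. It is no measure of leukocyte content. The part of these marker sums in the counts of members was not tested. A level is relative to all mRNA of its fraction, and in such bulk libraries fewer cells with an mRNA and less of it per cell cannot be told apart.

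Against ASP shDHPS, the polysomal level of 1 member, Inhba, was higher in ASP shSCR (all genes: 0.158%) and none was lower (0.0113%). DESeq2 called 3 members, 2 higher and 1 lower, and 554 genes where edgeR called 30. Inhba encodes the subunit of activin A. It was at 10.9, 25.1, 17.8 and 21.3 CPM in ASP shSCR, 19.7, 23.6, 15.4 and 18.9 CPM in NoASP shSCR, 12.96, 10.9, 11.9 and 8.20 CPM in ASP shGRIN2D, and 4.75, 8.14, 6.24 and 8.37 CPM in ASP shDHPS. Every ASP shDHPS library was below every library of ASP shSCR and NoASP shSCR, and the values of ASP shGRIN2D reached into its range. The difference was 2.73-fold (log2 1.45 ± 0.26, edgeR adjusted p = 0.0333), and without ASP shSCR replicate 1 it was 1.63 (adjusted p = 0.0036). Without ASP shDHPS replicate 3 the adjusted p was 0.259, and 11 of 20 alternatives passed. Its sub-polysomal level differed by 0.44 ± 0.22 (adjusted p = 0.319). The summed leukocyte markers (3 of 9 counted) moved in the same libraries, with 11.2, 13.9, 11.2 and 13.1 CPM in the polysomal libraries of ASP shSCR and 21.1, 20.01, 28.0 and 24.7 CPM in those of ASP shDHPS. Cd68 was the most abundant of them and Ptprc and Csf1r were at or near 0, so this sum too stands mostly for 1 gene. The part of these markers in the result was not tested.

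In the sub-polysomal libraries 8 members differed between ASP shSCR and ASP shDHPS, 4 higher (2.7% of members, all genes: 0.974%) and 4 lower (2.7%, all genes: 0.439%). DESeq2 called 11 members, 6 higher and 5 lower, and 651 genes where edgeR called 251. The largest difference was that of Plk2, a kinase induced by stress, which was at 15.8, 12.0, 22.0 and 16.9 CPM in ASP shSCR, 10.2, 18.9, 24.99 and 25.004 CPM in NoASP shSCR, 19.1, 26.6, 34.5 and 34.2 CPM in ASP shGRIN2D, and 29.5, 35.9, 45.7 and 48.5 CPM in ASP shDHPS. All libraries of ASP shDHPS were above those of ASP shSCR, by 2.39-fold (log2 −1.26 ± 0.24, adjusted p = 0.0045). Il1a rose from 61.9, 93.9, 85.4 and 85.0 CPM to 148, 154, 135 and 160 CPM (log2 −0.87 ± 0.16, adjusted p = 0.0045). Its polysomal level, 320, 262, 214 and 216 CPM against 326, 409, 225 and 470 CPM, overlapped and did not pass (−0.50 ± 0.23, adjusted p = 0.29). Plk2 and Il1a were the members that passed the threshold under every alternative tried.

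The other 2 that were lower in ASP shSCR were Zbtb10, a zinc finger repressor (log2 −0.91 ± 0.20, adjusted p = 0.0214), and Ifit2 (−0.92 ± 0.24, adjusted p = 0.0469). Ifit2 was at 4.69, 6.36, 7.79 and 6.53 CPM in ASP shSCR and at 11.4, 13.3, 10.7 and 12.7 CPM in ASP shDHPS, with no overlap, while its polysomal levels overlapped. The ratio of Zbtb10 differed by 1.09 ± 0.29, which did not pass (adjusted p = 0.0825). The 4 members that were higher in ASP shSCR were Bcl3 (0.97 ± 0.24, adjusted p = 0.0362), Pmepa1 (0.90 ± 0.22, adjusted p = 0.0312), Gadd45a, a growth arrest protein (0.88 ± 0.23, adjusted p = 0.0488), and Cebpb, a transcription factor of the acute response (0.71 ± 0.19, adjusted p = 0.0469). Pmepa1 was at 191, 287, 137 and 157 CPM in ASP shSCR and at 126, 113, 80.4 and 96.2 CPM in ASP shDHPS. The groups did not overlap for Pmepa1 and Cebpb and overlapped for Bcl3 and Gadd45a, and in all 4 of these genes ASP shSCR replicate 2 was the highest library (44.6 CPM for Bcl3 and 32.3 CPM for Gadd45a). Without ASP shSCR replicate 2 the adjusted p of these 4 lay between 0.195 and 0.273, and without replicate 1 only 3 of the 8 members passed, Plk2, Il1a and Bcl3. The summed leukocyte markers overlapped here (5.96 to 11.5 CPM against 6.77 to 12.0 CPM). Pecam1, the only endothelial marker counted, did not (0.242 to 0.623 CPM against 0 to 0.198 CPM), but had at most 12 counts in any library. The summed epithelial markers (4 of 4 counted) moved with these members, at 2669, 4166, 2254 and 2496 CPM in ASP shSCR and 1553 to 1953 CPM in ASP shDHPS, without overlap. Of them Krt18 (1.00 ± 0.24, adjusted p = 0.032) and Krt8 (0.74 ± 0.20, adjusted p = 0.049) were higher in ASP shSCR, while Epcam (0.54 ± 0.18) and Cdh1 (−0.29 ± 0.18) did not pass. The part of these cell type markers in the result was not tested.

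**Figure D5:**
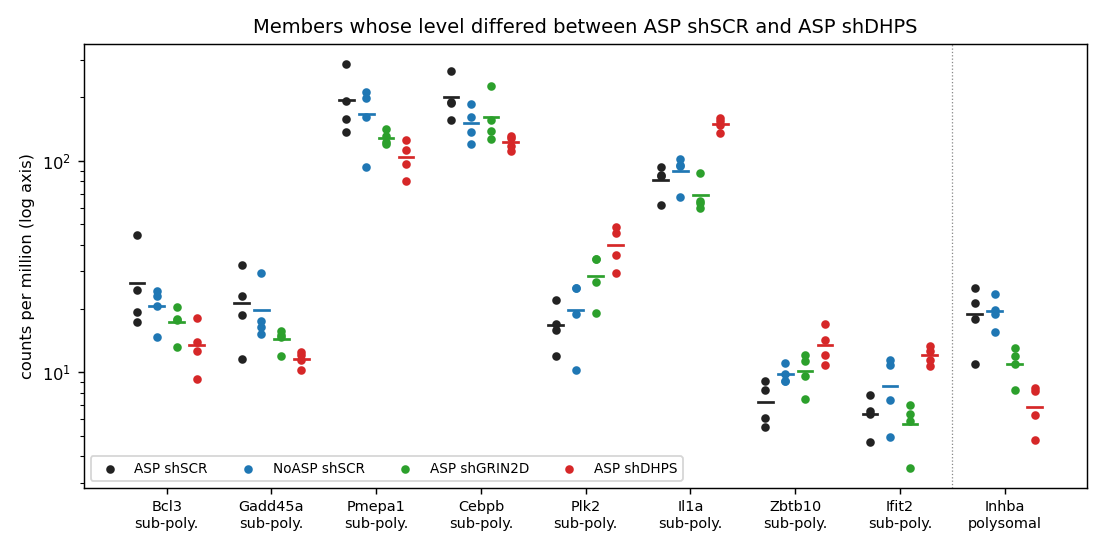
Level in CPM (y axis, log scale) of the 9 members whose level differed between ASP shSCR and ASP shDHPS, in each library of the 4 conditions (colour), in the sub-polysomal fraction for the first 8 and in the polysomal fraction for Inhba. Points are libraries and short lines means of 4. Plk2, Il1a, Zbtb10 and Ifit2 are higher in ASP shDHPS, and the other 5 are lower.

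None of the 29 upstream genes and none of the 8 AU-rich element binding proteins passed the threshold in any of the 9 comparisons between conditions (edgeR). The lowest adjusted p was 0.0859 among the upstream genes, in the ratio against ASP shDHPS, and 0.131 among the binding proteins, in the polysomal level against ASP shDHPS.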

How the data were processed

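The authors trimmed reads with Trim Galore 0.6.6, checked them with FastQC 0.11.9, aligned them to GRCm39 with STAR 2.6.1, quantified them with Salmon 1.4.0 and deposited the estimates as whole-number counts for 17757 genes, not normalized. Deposited differences in translation and gene set results, made by the authors with DESeq2 1.34.0, were not used. The counts were tested in R 4.3.3 with edgeR 4.0.16 (TMM scaling, quasi-likelihood F-test, two-sided, Benjamini-Hochberg adjustment over all genes, threshold 0.05). Ratios were fitted on 32 libraries with a term for each pellet and a fraction term for each condition, and levels on the 16 libraries of a fraction, whose CPM values were scaled within it. Pellet log2 ratios have a prior count of 2. Alternatives were DESeq2 1.42.0, its size factors, TMM within fractions, a filter of 10 counts in every library, no pellet term, a replicate block and leaving out each pellet; the same were run for the upstream list after its values were seen.

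Members were chosen for naming by a rule. It took, up to 3 a direction and comparison, those with the largest differences past the threshold and a mean of at least 50 counts. It also took 20 core genes, and the 5 highest and 5 lowest mean ratios. Gem, Pde4b, Dnajb4 and Ninj1 were chosen by it but are not described above. They count among the named members below. Their mean log2 ratios over pellets were 1.51 ± 0.44, 1.24 ± 0.54, 1.28 ± 0.47 and −1.885 ± 0.75. Gem, Pde4b and Dnajb4 were higher in polysomes in all 4 conditions, and Ninj1 was lower in all 4. Cebpb and other members outside that rule were named after their values were seen. Members, roles and lists were chosen with earlier results of these data known. Sequences were read from RefSeq and GENCODE tables of GRCm38. The main edgeR fits were run on simulated data, in which only comparisons between conditions were checked. The comparisons of fractions and the alternatives were not checked in this way. Values after ± are the SE for differences tested with edgeR, and the SD for mean ratios over pellets and mean shares over libraries. An SE gives the precision of a fitted difference, not the spread among pellets.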

Additional observations from a re-analysis of the deposited data

Results flagged for a closer look

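In 160 groups of 4 samples, 8 had 1 value far from the other 3, the number that a rate of 1 in 20 gives. The groups share libraries and are not independent draws, and why these values stood apart was not tested. The log2 ratio of Clcf1 was 0.727 in ASP shSCR replicate 1, while the other pellets lay between −2.24 and −1.83. Junb stood at −0.0629 in ASP shSCR replicate 2 (others 1.35 to 1.47) and at 2.56 in ASP shDHPS replicate 1 (others 1.22 to 1.41). Pmepa1 was −2.46 in ASP shDHPS replicate 1 (others −2.07 to −2.004) and Snn −2.08 in NoASP shSCR replicate 3 (others −2.87 to −2.81). Birc3 was 0.161 in NoASP shSCR replicate 4 (others 0.909 to 0.948), Tnip1 was 0.910 in ASP shGRIN2D replicate 1 (others 0.398 to 0.461), and Csf1 was 0.890 in NoASP shSCR replicate 1 (others 0.855 to 0.861), a small distance among near-equal values.

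The ratio of Ifit2 differed between ASP shSCR and ASP shDHPS by 1.49 (log2) in the test of the difference itself.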

How the results depend on the processing

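Counts of members in the 4 comparisons of fractions stayed within 1.5 times the main count under every alternative. With 1 pellet left out they ranged from 60 to 81 in ASP shSCR, 68 to 94 in NoASP shSCR, 71 to 93 in ASP shGRIN2D and 73 to 95 in ASP shDHPS. Between conditions, few members were called and the counts moved. For the ratio against ASP shDHPS (1 member) they were 8 with DESeq2, 0 with its size factors, 2 with TMM within fractions, 5 with the count filter, 0 without the pellet term and 2 with the replicate block, and 0 to 2 with 1 pellet left out. For the polysomal level against ASP shDHPS (1 member) they were 3 with DESeq2, 3 with the block and 0 to 3 with 1 pellet left out, and for that against ASP shGRIN2D (0) 0 to 1. For the sub-polysomal level against ASP shDHPS (8 members) they were 13 with the block and 2 to 9 with 1 pellet left out. Against ASP shGRIN2D (0) they were 2 with DESeq2, 2 with the block and 0 to 1 with 1 pellet left out. The lowest count of the sub-polysomal level was that without ASP shSCR replicate 2. Over all genes, the counts for the ratio against ASP shDHPS were 37 in edgeR and 626 with DESeq2, and those for the sub-polysomal level 251 and 651. The cause was not tested. For the 124 tests of named members past the threshold, 2709 values under the alternatives held 2528 in the same direction past the threshold, 181 in the same direction but not past it and 0 of opposite sign. Of the 181, 138 came with 1 pellet left out, 19 without the pellet term, 10 with TMM within fractions, 7 with DESeq2 size factors, 4 with DESeq2 and 3 with the count filter. Replicate numbers are not said to pair pellets: deviations correlated with a median of 0.166 for the same number (24 pairs, lowest −0.27) and −0.05 for others, and 10 of 16 pellets went best with their own number. With the prior count at 0.5 no mean ratio of a named member moved by more than 0.0551. The values of the 25 members with a mean under 50 counts rest on few counts. The effect of depth on their calls was not tested.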
